A study of Mus musculus with 2 samples.

Results

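Tissue macrophage genes were examined in the fetal ear of the mouse at E18.5, shortly before birth, in RNA of fetuses that lacked both myogenic regulators Myf5 and Myod1 and in wild-type RNA. The set held 10 genes (Csf1r, C1qa, C1qb, C1qc, Mrc1, Cd68, Cd163, Adgre1, F13a1 and Lyz2) out of 19938 genes named on the array. They were chosen by name, as genes known from macrophages, with earlier results of these data known, and each had 1 probe set paired with it alone, so 10 of 35557 probe sets carried the values below. The double-knockout sample was labelled BALB/c Myf5:Myod null and the wild-type sample BALB/c. Each genotype was measured on 1 Affymetrix array, so no value has a replicate, no test across samples was possible, and no difference could be set against the spread between animals. The part of the ear taken is not stated in the labels, nor whether the RNA came from 1 fetus or from a pool, nor whether the fetuses shared a litter. Fetuses without both regulators form little or no skeletal muscle.

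Macrophages are phagocytes that settle in nearly every tissue before birth, coming from the yolk sac and the fetal liver. Their survival depends on signals through the receptor encoded by Csf1r. In fetal tissues they remove dying cells, take up debris through scavenger and lectin receptors, and secrete the opsonin C1q, which tags material for uptake. Skeletal muscle, fat, bone marrow and the sensory organs of the ear each hold resident macrophages.

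Values are log2 signals on the scale of the deposited table. The median over all probe sets of an array, 5.70 in the double knockout and 5.65 in the wild type, served as that array's floor, and lower values were raised to it. The difference is log2 signal in the double knockout minus that in the wild type. It was taken for 12458 genes, those that passed the floor on 1 array or both. Their median difference was -0.01, with the middle 90% between -0.48 and 0.42. Probe sets of the same gene, over 619 genes with several, differed with a standard deviation of 0.17, which covers probe noise and not animals. Genes were counted as lower or higher at 1.2-fold or more, a log2 difference of 0.26, and also at 2-fold. Of the 12458 genes, 12.9% were lower and 11.2% higher by 1.2-fold or more. The list counts below stand beside these shares. Of the targeted genes, Myod1 read 6.38 in the double knockout and 6.95 in the wild type, and Myf5 read 5.25 in the double knockout, below the floor, and 5.94 in the wild type. Whether these probes lie in the deleted parts is not stated in the labels, so they say little about the genotypes. The skeletal muscle list had 34 of 37 genes lower by 2-fold or more, and its summed linear signal was 1881 in the double knockout and 53967 in the wild type. The otoconial gene Oc90 of the inner ear read 11.26 in the double knockout and 11.28 in the wild type. Tecta of the tectorial membrane read 8.76 in the double knockout and 8.74 in the wild type, and the inner ear list had 12 of 14 genes above the floor, 0 lower by 1.2-fold or more and 2 higher, Coch at 0.32 and Pou3f4 at 0.31.

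Macrophage genes read lower in the double-knockout ear. 9 of the 10 lay above the floor on both arrays, and all 9 had a difference below 0, against 50.8% of all genes. 8 of the 9 were lower by 1.2-fold or more, against 12.9% of all genes, and 0 were higher, against 11.2%. The 1.2-fold line was chosen with earlier results of these data known, and Csf1r, C1qb and Mrc1 lie just past it. The count of 8 thus rests partly on that choice, and at 1.5-fold it was 0, against 3.62% of all genes. The differences were small: 0 of the 9 reached 2-fold lower, against 1.71% of all genes, and 0 reached 2-fold higher, against 0.482%. Their median difference was -0.32, beside -0.01 for all genes. The exception to the 1.2-fold count was Cd68. Cd163 lay below the floor on both arrays. The linear signals of the 10 probe sets summed to 1903 in the double knockout and 2382 in the wild type, a ratio of 0.80. In whole-tissue RNA, fewer macrophages and less of these transcripts per macrophage cannot be told apart. The arrays held different amounts of muscle RNA, and the part of that in these values was not tested.

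**Figure D1:**
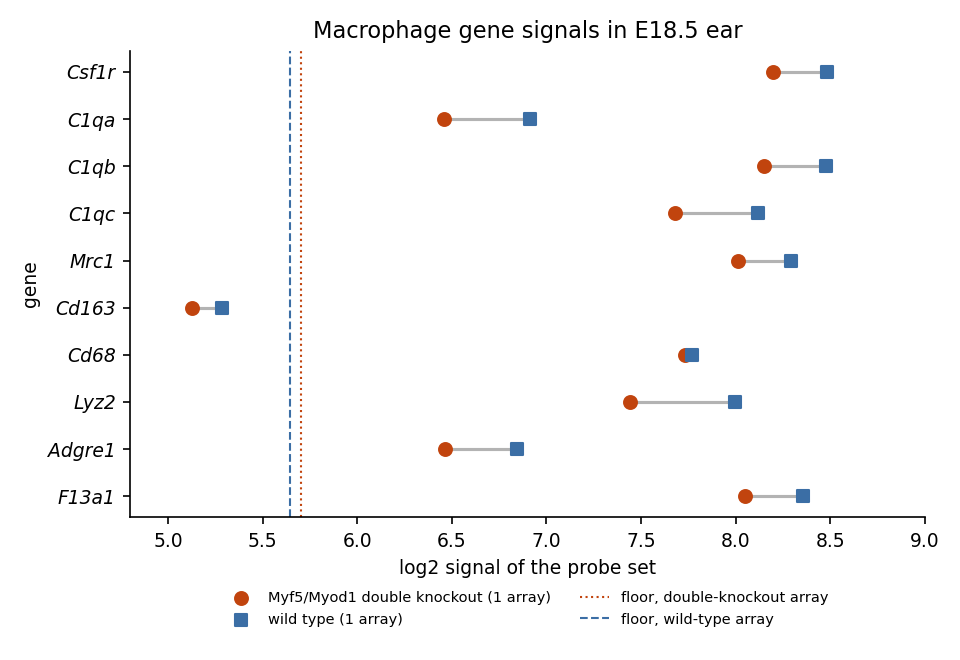
Log2 signal of the 10 macrophage genes, 1 row per gene, in the double knockout (circles, 1 array) and the wild type (squares, 1 array), with each array's floor as a vertical line. The circle lies left of the square in every row, the pair nearly meets for Cd68, and both Cd163 points lie below the floors.

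Csf1r encodes the receptor for the growth factors Csf1 and Il34. Its signal (probe set 10456071) was 8.20 in the double knockout and 8.48 in the wild type, a log2 difference of -0.29, or 1.22-fold lower. This was among the smaller differences in the set, and 11.2% of all genes were as low or lower. The ligand Csf1 read 7.47 in the double knockout and 7.58 in the wild type, a difference of -0.11, which is within the spread of probe sets. Il34, the other ligand, lay at the edge of detection, at 5.66 in the double knockout and 5.71 in the wild type. Csf1r was thus the one member of this receptor and its ligands to pass 1.2-fold.

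The list of growth factors and receptors that act on macrophages held 13 genes, Csf1r among them. 10 lay above the floor, with a median difference of -0.09. 1 of these was lower by 1.2-fold or more, Csf1r itself, and 1 was higher. The higher one was Cx3cl1, a membrane-bound chemokine, at 6.59 in the double knockout and 6.10 in the wild type, 1.40-fold higher. Its receptor Cx3cr1, found on monocytes and many resident macrophages, read 7.37 in the double knockout and 7.47 in the wild type. Csf2ra, a subunit of the receptor for the granulocyte-macrophage factor Csf2, differed by 0.09, and Csf2rb, its signalling subunit, by -0.18. Csf2 itself was below the floor on both arrays. Tgfb1, Flt3l and Il4ra differed by -0.21, -0.08 and 0.09.

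C1qa, C1qb and C1qc encode the A, B and C chains that assemble into C1q, the recognition protein of the classical complement pathway. In most tissues macrophages are its main source. The 3 genes are neighbours on mouse chromosome 4, in the order C1qb, C1qc, C1qa, in the RefSeq gene table of GRCm38.p6. C1qa (probe set 10517517) read 6.46 in the double knockout and 6.91 in the wild type, 1.37-fold lower. C1qb (probe set 10517508) read 8.15 in the double knockout and 8.48 in the wild type, 1.25-fold lower. C1qc (probe set 10517513) read 7.68 in the double knockout and 8.12 in the wild type, 1.36-fold lower. All 3 chains thus differed in the same direction, with log2 differences of -0.46, -0.32 and -0.44. Among all genes, 5.46% were as low as C1qa, 5.84% as low as C1qc and 9.39% as low as C1qb. They are 3 probe sets on the same pair of RNA samples and not independent measurements of the genotypes.

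The bases before the start sites of C1qb, C1qc and Mrc1 are shown as examples of members that hold the short core GAGGAA. It is a core of sites bound by PU.1, the macrophage transcription factor encoded by Spi1. Whether PU.1 has a part in the lower signals was not tested. Sequences are from RefSeq (GRCm38.p6), 250 bases up to the start site, 5′ to 3′ on the gene's strand. Capitals mark the core on this strand or its reverse complement TTCCTC.
C1qb, chr4:136886201-136886450, minus strand: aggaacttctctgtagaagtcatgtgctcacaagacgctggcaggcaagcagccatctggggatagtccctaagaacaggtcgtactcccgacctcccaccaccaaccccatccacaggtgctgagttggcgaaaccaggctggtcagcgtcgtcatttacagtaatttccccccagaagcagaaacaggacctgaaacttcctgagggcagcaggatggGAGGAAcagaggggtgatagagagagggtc
C1qc, chr4:136892915-136893164, minus strand: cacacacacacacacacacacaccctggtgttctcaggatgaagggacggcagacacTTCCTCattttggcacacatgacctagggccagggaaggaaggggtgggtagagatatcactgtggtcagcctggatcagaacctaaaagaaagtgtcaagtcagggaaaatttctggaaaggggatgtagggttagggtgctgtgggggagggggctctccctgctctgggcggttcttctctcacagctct
Mrc1, chr2:14229164-14229413, plus strand: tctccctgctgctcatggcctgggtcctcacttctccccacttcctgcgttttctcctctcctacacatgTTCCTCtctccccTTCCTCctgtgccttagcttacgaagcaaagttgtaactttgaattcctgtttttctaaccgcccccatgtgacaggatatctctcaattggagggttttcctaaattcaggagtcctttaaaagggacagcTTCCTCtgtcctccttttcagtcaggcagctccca
Start-site windows, from 250 bases before to 50 after the start, were given for 7 of the 10 genes, in 8 windows because F13a1 has more than 1 start. On either strand 6 of the 8, from 5 of the 7 genes, held GAGGAA, against 28.3% of 32851 mouse windows of the same length. The longer GAGGAAGT, which contains the core, was in 2 of the 8, those of C1qc and of a start of F13a1, against 3.20% of windows. The nearest core lay 30 bases before the start of C1qb, 193 before that of C1qc and 35 before that of Mrc1, counted from its first base. The window of Cd68, whose signal differed least, also held the core, and that of Lyz2, whose signal differed most, did not. These matches describe letters in a window and are not evidence of binding. The motifs were chosen from several short ones after their matches had been seen.

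Other complement genes were close to 0 as a list. Of 22 listed, 19 had a probe set of their own and 8 lay above the floor, with a median difference of -0.03. 2 of the 8 were lower by 1.2-fold or more and 0 were higher, against 12.9% and 11.2% of all genes. C3ar1, the receptor for the anaphylatoxin C3a, which macrophages carry, read 6.74 in the double knockout and 7.18 in the wild type, 1.36-fold lower. Serping1, the inhibitor of the proteases that pair with C1q, read 8.82 in the double knockout and 9.16 in the wild type, 1.27-fold lower. Clu and Cd59a, which restrain the terminal pathway and are made by many cell types, differed by 0.13 and -0.09. The mannan-binding lectin protease Masp1 and the stabilizer properdin, Cfp, differed by 0.24 and 0.14.

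Mrc1 encodes the mannose receptor, an endocytic lectin of resident macrophages that some endothelia also make. Its signal (probe set 10469358) was 8.01 in the double knockout and 8.29 in the wild type, a log2 difference of -0.28, or 1.22-fold lower. It was the member nearest to the 1.2-fold line among those past it, and 11.6% of all genes were as low or lower. Cd163 encodes the scavenger receptor for haemoglobin bound to haptoglobin. This gene (probe set 10541644) read 5.12 in the double knockout and 5.28 in the wild type, below the floor on both arrays, so no difference is given for it.

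The wider list of phagocytic and Fc receptors held 25 genes. 18 lay above the floor, with a median difference of -0.10, and 14 of these were below 0, against 50.8% of all genes. 3 were lower by 1.2-fold or more and 1 was higher, against 12.9% and 11.2% of all genes. Axl, a receptor for dying cells bridged by Gas6, read 8.45 in the double knockout and 8.94 in the wild type, 1.41-fold lower. Gas6 itself read 8.87 in the double knockout and 9.21 in the wild type, 1.27-fold lower. Mertk, a relative of Axl and the main receptor of this kind on macrophages, read 7.46 in the double knockout and 7.31 in the wild type, a difference of 0.15, within the spread of probe sets. Fibroblasts and endothelium also make Axl and Gas6. Fcgr2b, the inhibitory Fc receptor, was 1.41-fold lower and the ferritin receptor Scara5, typical of stromal cells, 1.26-fold lower. The activating receptors Fcgr1 and Fcgr3 and their shared signalling chain Fcer1g differed by -0.14, -0.16 and -0.11, all within the spread of probe sets. The higher gene was Cd36, a fatty acid and scavenger receptor that fat cells also express, at 9.45 in the double knockout and 9.19 in the wild type. Lrp1 and Colec12, uptake receptors that many cell types make, differed by -0.05 and 0.00.

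Cd68 encodes a heavily glycosylated membrane protein of endosomes and lysosomes, abundant in macrophages and osteoclasts. Its signal (probe set 10387536) was 7.73 in the double knockout and 7.77 in the wild type, a log2 difference of -0.04, or 1.03-fold lower. It therefore differed by less than the spread of probe sets, and 43.0% of all genes were as low or lower. Lysosomal genes as a list were also close to 0. Of 26 listed, 22 had a probe set of their own and all 22 lay above the floor, with a median of -0.04. 2 were lower by 1.2-fold or more and 1 was higher, against 12.9% and 11.2% of all genes. Psap, Ctsd and Grn, common lysosomal proteins, differed by 0.07, -0.04 and -0.10. Cd63 and Hexa were just past the line, each at -0.27, and Gaa, the acid glucosidase, was 1.26-fold higher. The osteoclast list, whose cells come from the same lineage, had 12 of 14 genes above the floor and a median of -0.01. 2 of the 12 were lower, Itgb3 and Nfatc1, and 1 was higher, Ocstamp, against the same shares of all genes. The bone-resorbing enzymes Ctsk and Acp5 differed by -0.01 and 0.01. How far osteoclast RNA carries the Cd68 signal was not tested.

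Lyz2 encodes the lysozyme of macrophages, monocytes and neutrophils, an enzyme that cleaves bacterial cell walls. Its signal (probe set 10372648) was 7.44 in the double knockout and 7.996 in the wild type, a log2 difference of -0.56, or 1.47-fold lower. This was the largest difference among the 9 genes, and 3.94% of all genes were as low or lower. Its neighbour on chromosome 10, Lyz1, encodes the closely related lysozyme of intestinal Paneth cells. Lyz1 (probe set 10372652) read 5.41 in the double knockout and 5.61 in the wild type, below the floor on both arrays. The 100 bases before the start sites of the pair are shown because the genes are recent copies, and capitals mark the positions where they differ (RefSeq, GRCm38.p6, 5′ to 3′ on the gene's strand).
Lyz2, chr10:117282273-117282372, minus strand: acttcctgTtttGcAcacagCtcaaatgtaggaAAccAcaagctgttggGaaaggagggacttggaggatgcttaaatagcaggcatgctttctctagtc
Lyz1, chr10:117292869-117292968, minus strand: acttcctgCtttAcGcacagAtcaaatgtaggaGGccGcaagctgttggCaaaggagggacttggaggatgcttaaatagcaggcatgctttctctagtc
Over these bases, compared without gaps, 92 of 100 were the same, and over 250 bases before the starts 152 were. Whether each probe set also reads transcripts of the other copy was not tested.

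The few neutrophil genes above the floor, from a cell type that also expresses Lyz2, read lower as well. Of 15 neutrophil genes 4 lay above the floor in at least 1 array, and 2 of these, Lcn2 and S100a9, on both. Ngp and Ltf passed it in the wild type alone, so their differences could hardly lie above 0. All 4 were below 0, against 50.8% of all genes, and 3 were lower by 1.2-fold or more, against 12.9%. Because of that filter, these counts say little about the list. Its median was -0.94, and -0.19 with a pseudocount. Ngp, a granule protein, read 5.62, below the floor, in the double knockout and 7.24 in the wild type, at least 2.90-fold lower. Lcn2, which epithelia also secrete, was 2.30-fold lower and S100a9 1.59-fold lower. The summed linear signal of the 15 was 528 in the double knockout and 851 in the wild type, a ratio of 0.62. The defining genes Mpo, Elane, Camp and S100a8 were below the floor on both arrays. The share of neutrophils in the Lyz2 difference was not tested.

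Adgre1 encodes an adhesion receptor widely used as a surface marker of mouse macrophages. Adgre1 (probe set 10446282) read 6.47 in the double knockout and 6.85 in the wild type, a log2 difference of -0.38, or 1.30-fold lower. F13a1 encodes the A subunit of coagulation factor XIII, made by tissue macrophages and by megakaryocytes. F13a1 (probe set 10408693) read 8.05 in the double knockout and 8.36 in the wild type, a difference of -0.31, or 1.24-fold lower. 7.43% of all genes were as low as Adgre1 and 10.4% as low as F13a1. Among other platelet genes, the chemokine Pf4 and the platelet tubulin Tubb1 differed by -0.07 and -0.06, and the receptor subunit Gp9 was 1.25-fold higher. The platelet list, F13a1 included, had a median of -0.03 over 7 of 11 genes, of which 4 were below 0, 1 was lower by 1.2-fold or more (F13a1) and 2 were higher. Lyz2, F13a1 and Cd68 are members that neutrophils, platelets or osteoclasts also express. Without Lyz2, F13a1 and Cd68, the 6 genes above the floor had a median of -0.35. All 6 were lower by 1.2-fold or more, against 12.9% of all genes. Lyz2, F13a1 and Cd68 were left out after their values were seen, and Cd68 was the only one of the 9 not past the line. The count of 6 was thus set by that choice.

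**Figure D2:**
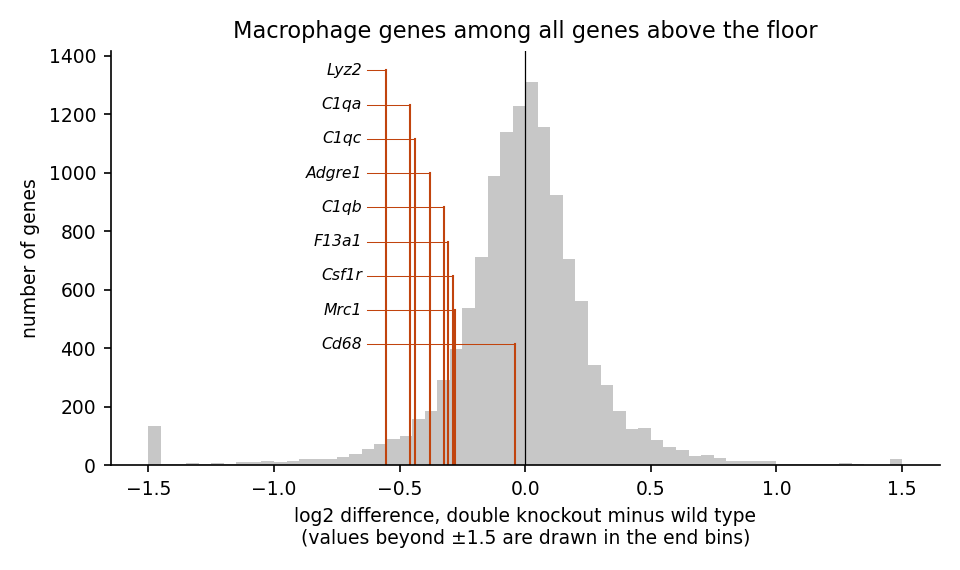
Distribution of the log2 difference, double knockout minus wild type, over the 12458 genes that passed the floor on 1 array or both (grey bars, number of genes per bin), with the 9 macrophage genes above the floor as vertical lines. The lines run from -0.56 for Lyz2 to -0.28 for Mrc1, with Cd68 at -0.04 near the centre of the distribution.

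The 8 genes past 1.2-fold spanned 0.27 on the log2 scale from one another, and the differences of 4 of them exceeded 2 standard deviations of the probe-set spread (Lyz2, C1qa, C1qc and Adgre1). Across the set, the double-knockout signals were 68.0% of the wild-type signal for Lyz2, between 72.8% and 82.3% for the other 7 past the line, and 97.3% for Cd68.

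The list of macrophage transcription factors held genes on both sides of 0. Of 16 factors 15 had a probe set of their own and 10 lay above the floor, with a median difference of 0.03. 2 of the 10 were lower by 1.2-fold or more and 2 higher, against 12.9% and 11.2% of all genes. Counts this small do not set the list apart from all genes. Spi1, which encodes PU.1, read 6.89 in the double knockout and 7.25 in the wild type, 1.29-fold lower. Irf5, a regulator of inflammatory genes, read 5.70 in the double knockout, at the edge of the floor, and 6.00 in the wild type, 1.23-fold lower. Irf8, needed for monocytes and microglia, was just short of the line at -0.26. Cebpb was 1.22-fold higher and Nr1h3, a sterol-sensing nuclear receptor below the floor in the wild type, at least 1.27-fold higher. The factors with the highest signals, Maf, Zeb2 and Runx1, differed by 0.26, 0.16 and -0.15, and many other cell types make them. Of these factors, Spi1 is the most specific to myeloid cells. Cebpa and Mitf, also found in fat cells and melanocytes, differed by 0.13 and -0.08.

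Further macrophage genes leaned to the same side as the 10. Of 37 listed, 25 lay above the floor, with a median of -0.13, and 21 of them were below 0, against 50.8% of all genes. 8 were lower by 1.2-fold or more and 1 was higher, against 12.9% lower and 11.2% higher among all genes. Ctsc, a lysosomal protease that activates granule enzymes of neutrophils and mast cells as well, read 7.38 in the double knockout and 8.13 in the wild type, 1.68-fold lower. Cybb, the catalytic subunit of the phagocyte oxidase, was 1.40-fold lower, Folr2, a folate receptor of resident macrophages, 1.30-fold and Tyrobp, a signalling adaptor of myeloid receptors, 1.26-fold. Fcrls and Hmox1 were 1.29-fold and 1.28-fold lower, Gas6 is given above, and Ms4a6b, below the floor in the double knockout, was at least 1.36-fold lower. The higher gene was Cbr2, a carbonyl reductase, at 8.43 in the double knockout and 8.15 in the wild type. Among the members not past the line, Trem2, Ctss, Ms4a6c, Cd33, Hpgds and Lgals3 differed by 0.12, -0.11, -0.11, -0.13, -0.10 and 0.03. All of these lay within the spread of probe sets. Slc40a1 and Gpnmb, also short of the line, differed by more than that spread, at -0.25 and -0.23. The members with the highest signals, Apoe, Dab2 and Igf1, which many cell types make, differed by -0.14, 0.00 and -0.12. Lyve1 and Stab1, shared with lymphatic and sinusoidal endothelium, differed by -0.22 and -0.11. Aif1, Timd4 and Mpeg1 were below the floor on both arrays.

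Genes shared by all leukocytes were centred on 0. 24 of the 26 had a probe set of their own, and 18 lay above the floor with a median of -0.01. 3 were lower by 1.2-fold or more and 1 was higher, against 12.9% and 11.2% of all genes. Cyba, the partner of Cybb in the oxidase, read 8.90 in the double knockout and 9.28 in the wild type, 1.30-fold lower. Plek was 1.26-fold lower and Cd53 was just past the line at -0.27, and the small GTPase Rac2 was 1.23-fold higher. Laptm5 and Arhgdib, abundant leukocyte genes, differed by -0.13 and -0.09. Ptprc, the common leukocyte antigen, read 5.70 in the double knockout and 5.72 in the wild type, at the edge of the floor.

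**Figure D3:**
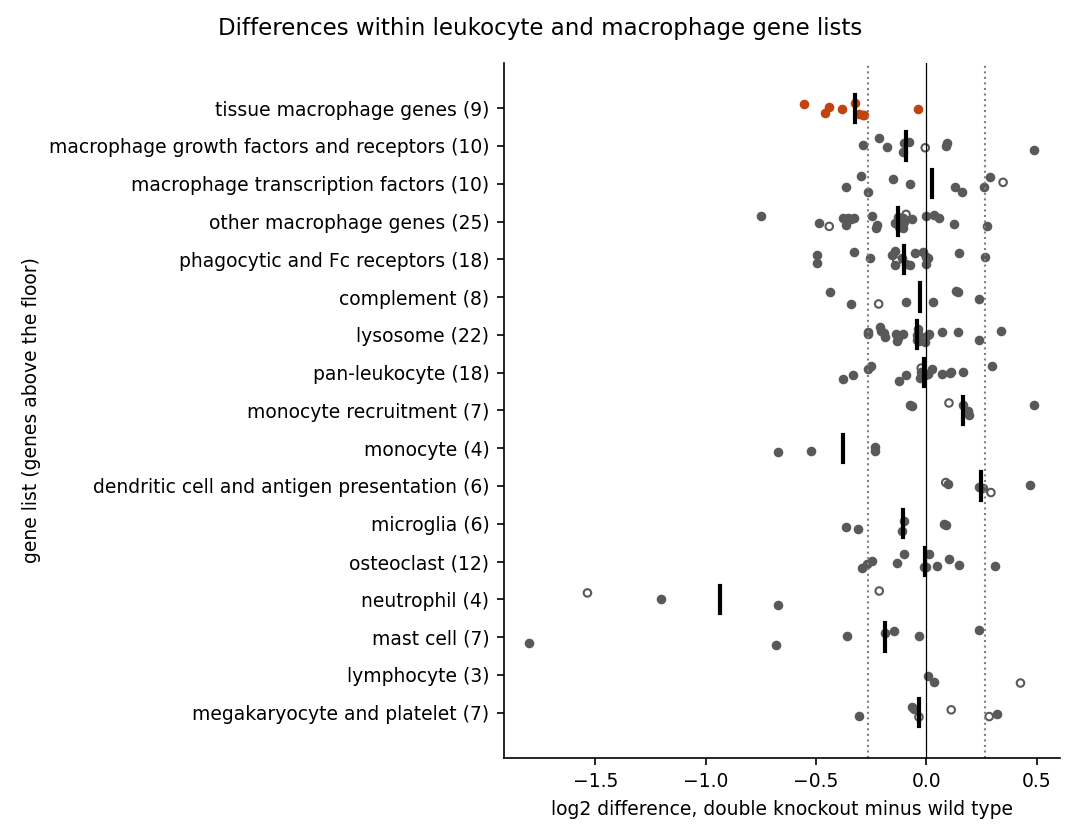
Log2 difference, double knockout minus wild type, of each gene above the floor in 17 lists, with the number of such genes in brackets. Filled points are genes above the floor on both arrays, open points are bounds, thick bars are medians for lists of 4 or more genes, and dotted lines mark 1.2-fold; the median of the tissue macrophage genes is -0.32 and that of the pan-leukocyte list -0.01.

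The few antigen presentation genes above the floor lay on the other side of 0. In the list of dendritic cell and antigen presentation genes, 6 of 15 lay above the floor, 4 of them on both arrays. H2-Ab1 and Ccr7 passed it in the double knockout alone, so their differences could not lie below 0. All 6 were above 0, where 50.8% of all genes were below it, and their median was 0.25. 2 were higher by 1.2-fold or more, H2-Ab1 among them, and 0 lower, against 11.2% and 12.9% of all genes. Cd74, the invariant chain of MHC class II, read 6.37 in the double knockout and 5.90 in the wild type, 1.38-fold higher, and the class II chain H2-Ab1 was at least 1.22-fold higher. H2-DMa and H2-Eb1 differed by 0.26 and 0.24. The signals of all 6 lay near the floor, at 6.37 or less in the double knockout. The members C1qa and Adgre1 were little higher there, at 6.46 and 6.47. Flt3 and Cd209a, typical of dendritic cells, were below the floor on both arrays.

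Monocytes and their recruitment gave few readable genes. Of 12 monocyte genes 9 had a probe set of their own and 4 lay above the floor, with a median of -0.38; these were Fn1, Vcan, Nr4a1 and Ace, which stromal and endothelial cells make as well. Ace was 1.59-fold lower and Nr4a1 1.44-fold lower. Ccr2, the chemokine receptor of blood monocytes, was below the floor on both arrays. Of 16 chemokines and receptors of recruitment 7 lay above the floor, with a median of 0.16, 0 lower by 1.2-fold or more and 1 higher, Cx3cl1. Cxcl12 and its receptor Cxcr4 differed by 0.16 and 0.19. The monocyte attractant Ccl2 read 5.75 in the double knockout and 5.45 in the wild type, near the floor.

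Microglia are the macrophages of the brain and share Csf1r, C1q and Cx3cr1 with those of other tissues. Of 11 microglial genes 6 lay above the floor, with a median of -0.11 that turned to 0.07 without a floor, and 2 were lower by 1.2-fold or more, Fcrls and Tmem119, the second of which osteoblasts also make. P2ry12 and Siglech, the most specific members, were below the floor on both arrays. Brain neuron genes were higher in the double knockout, with a median of 0.54 over 16 of 20 genes and summed signals of 5769 in the double knockout and 4230 in the wild type. Fat cell genes were higher too, with a median of 0.60 over 16 of 18 genes and summed signals of 17600.5 in the double knockout and 10713.9 in the wild type. These lists were written with their differences known. Salivary gland genes were higher in all 10 of the 12 that lay above the floor, 9 of them by 2-fold or more, with summed signals of 12150.7 in the double knockout and 464.8 in the wild type. Fibroblast genes leaned lower, with a median of -0.12 over 14 genes. Of these, 5 were lower by 1.2-fold or more and 0 higher, against 12.9% and 11.2% of all genes. Dpt, the dermatopontin gene of connective tissue, was 2.87-fold lower. The macrophage differences thus stand between arrays that also differ in muscle, brain, fat, salivary and connective tissue genes, and the part of these tissues in them was not tested.

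**Figure D4:**
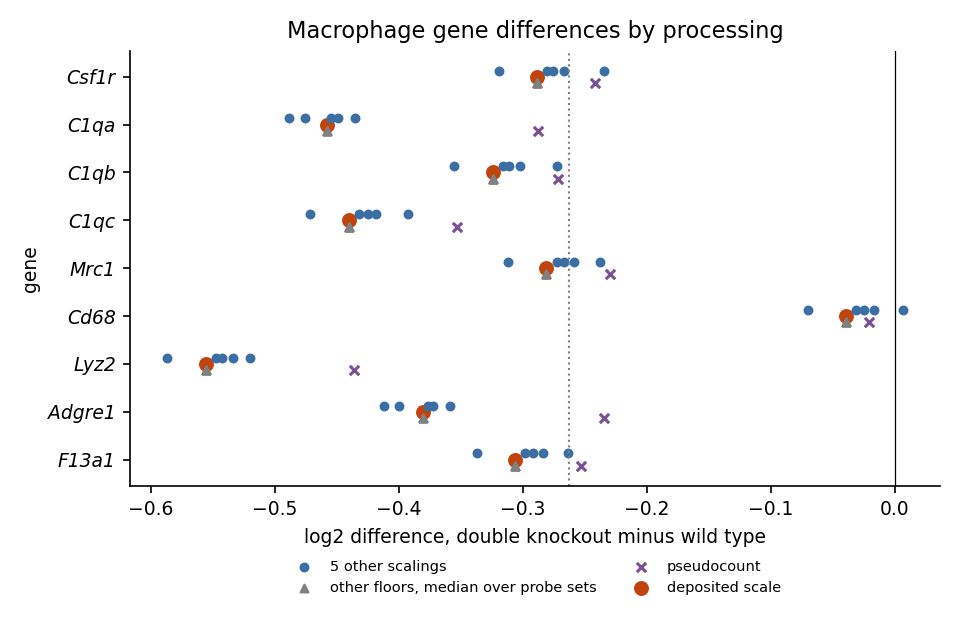
Log2 difference, double knockout minus wild type, of the 9 macrophage genes above the floor on the deposited scale (large circles), after 5 other scalings (small circles), with other floors or the median over probe sets (triangles) and with a pseudocount (crosses). The dotted line marks 1.2-fold lower; Lyz2 stays between -0.59 and -0.44, whereas Csf1r (-0.32 to -0.23) and Mrc1 (-0.31 to -0.23) cross the line under some scalings and the pseudocount, and Adgre1 (-0.41 to -0.23) and F13a1 (-0.34 to -0.25) under the pseudocount.

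Under 5 other scalings of the arrays, 8 of the 9 genes kept a difference below 0 and Cd68 ranged from -0.07 to 0.01. The count lower by 1.2-fold or more was 7 with equal medians of expressed probe sets, against 11.4% of all genes, and 6 after quantile normalization, against 11.98%, since Csf1r and Mrc1 lie close to the line. With no floor and the array median added to each signal it was 4, Lyz2 and the C1q genes, against 5.20% of all genes.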

How the data were processed

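Total RNA of E18.5 ear, extracted with Trizol and labelled with biotin from 6 µg, was hybridised to 1 array per genotype, per the labels' protocols. The authors deposited 1 log2 value per probe set and array; the base is read from the range of the values, and the normalization between arrays is not stated. The submitters' processing notes name MAS5, without a version; MAS5 reads mismatch probes, which whole-transcript arrays like this one lack, so how the signals and their low end were made is unsettled. The platform annotation, which can be old, paired 21789 probe sets with 1 gene, 1621 with several and 12147 with none; 0 probe sets paired a member with another gene. For each of 19938 genes the probe set of highest mean linear signal was kept. Signals also decided which genes passed the floor, ranked genes to choose which to name, and were summed over lists. Levels of different probe sets are not comparable, so each summed linear signal is weighted towards its brightest probe sets. Of the deposited columns, 0 were left out.

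Values were used on their deposited scale; trimmed means of the linear signals were 138 in the double knockout and 140 in the wild type. Floors, differences and folds were computed in Python 3.11.15 with pandas 2.3.3, and the calculation was tested on simulated data. A fold against a gene at the floor is a bound. Precision is limited by the number of arrays. The members, the 25 comparison lists, the 1.2-fold line and the motifs were chosen with earlier results of these data known, among them the differences of Csf1r, C1qb and Mrc1, which lie just past that line. Named genes are all members and, from the lists described gene by gene, mostly those of highest signal and those furthest from 0; the others, and the genes left out, were chosen after their values were seen. Alternatives were 5 scalings, no floor or one at the 25th or 75th percentile, a pseudocount, the median over probe sets, and lines at 1.1-fold, 1.5-fold and 2-fold.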

Additional observations from a re-analysis of the deposited data

How the results depend on the processing

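The median difference of the macrophage genes ranged from -0.36 to -0.25 over 11 alternatives, among them leaving out Lyz2, F13a1 and Cd68, an alternative chosen after seeing the data. The count of macrophage genes lower by 1.2-fold or more, 8 on the deposited scale, was 6 to 8 under the scalings (11.4% to 15.3% of all genes). It was 6 of the 7 above a floor at the 75th percentile (12.3% of all genes), where C1qa and Adgre1 no longer entered. With a pseudocount it was 4 (5.20% of all genes). On the deposited scale it was 8 at 1.1-fold (25.7% of all genes), 0 at 1.5-fold (3.62%) and 0 at 2-fold (1.71%). The count over all genes, 1601, was 783 with that higher floor, 1036 with a pseudocount, 3203 at 1.1-fold, 451 at 1.5-fold and 213 at 2-fold. With no floor Cd163 entered, at -0.16. Of 222 list medians under the alternatives 14 moved by more than the probe-set spread, in the muscle, salivary, neutrophil, brain and microglia lists; the medians of 9 of 23 lists turned sign under at least 1 alternative, among them the growth factor, transcription factor, complement, pan-leukocyte, osteoclast, platelet and microglia lists. No paired analysis was possible because each genotype has 1 array. Genes near the floor have differences understated by it.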

Other observations

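Mast cell genes, outside the macrophage lineage, were lower in the double knockout for 6 of the 7 above the floor, against 50.8% of all genes. Of 14 listed, 7 lay above the floor on both arrays, with a median of -0.19. 3 were lower by 1.2-fold or more and 0 higher, against 12.9% and 11.2% of all genes. The tryptase gene Tpsab1 read 6.29 in the double knockout and 8.09 in the wild type, 3.48-fold lower, and the related tryptase Tpsb2 was 1.29-fold lower. The chymase Mcpt4 was 1.60-fold lower. Cpa3, the carboxypeptidase of mast cell granules, read 9.20 in the double knockout and 9.35 in the wild type, a difference of -0.15, and Gata2, a transcription factor of the lineage, differed by -0.03. Kit, the growth factor receptor of mast cells, which melanocytes also carry, read 7.55 in the double knockout and 7.31 in the wild type, a difference of 0.24 the other way. Thus the granule proteases differed unequally, and Cpa3 and Gata2 by less than the spread of probe sets.

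Of 17 lymphocyte genes 15 had a probe set of their own and 3 lay above the floor. Cd3e, a subunit of the T cell receptor complex, read 6.07 in the double knockout and 5.07, below the floor, in the wild type, at least 1.34-fold higher. Cd3g, another subunit, was below the floor on both arrays, at 5.28 in the double knockout and 3.81 in the wild type. Endothelial genes had a median of -0.07 over 14 of 15 genes. 2 were lower by 1.2-fold or more, Tek and Pecam1, and 0 higher, against 12.9% and 11.2% of all genes.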
